A study of Homo sapiens with 6 samples.

Results

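Genes that bring iron into the erythroid cell, store it, release it and sense it were examined in HUDEP-2 cells after depletion of menin. The 10 genes were taken by name from the 62754 gene rows of each library: the receptors TFRC and TFR2, the endosomal proteins STEAP3 and SLC11A2, the ferritin subunits FTH1 and FTL with their turnover receptor NCOA4, the exporter SLC40A1, and the iron sensors IREB2 and ACO1. HUDEP-2 is an immortalised human erythroid precursor line. In 1 group the cells carried a lentiviral shRNA against MEN1, labelled MEN1sh2, and cells of the other a non-targeting shRNA, with 3 libraries in each group that the labels call biological replicates. Every culture, controls included, held 3 units per ml of erythropoietin, 50 ng per ml of stem cell factor, 1e-06 M dexamethasone and 1 µg per ml of doxycycline. All were held in puromycin at 2 µg per ml for 48 h from 24 h after infection, and RNA was profiled at 72 h. Cells with the MEN1 shRNA are called the knockdown here. The labels name 1 hairpin, so loss of menin and an effect of that hairpin on other transcripts cannot be told apart, and nothing in them says whether the replicates were separate transductions.

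An erythroid precursor takes up iron for heme at a higher rate than almost any other cell. Transferrin with its iron binds the receptor encoded by TFRC, the complex enters an acidified endosome, STEAP3 reduces the iron, and the transporter encoded by SLC11A2 (DMT1) carries it into the cytosol. Iron that is not used is held in ferritin, a shell of heavy (FTH1) and light (FTL) subunits, is set free when NCOA4 takes ferritin to the lysosome, or leaves through ferroportin (SLC40A1). The proteins encoded by ACO1 (IRP1) and IREB2 (IRP2) bind a hairpin in messenger RNA, the iron-responsive element, when iron is scarce. Binding near the 5′ end blocks translation, and binding in the 3′ untranslated region of TFRC protects the messenger from decay.

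These hairpins are shown because they set how the members are known to be controlled after transcription. GENCODE release 29 transcripts (GRCh38) of protein-coding genes were searched on the sense strand for an unpaired C, 5 bases, the loop CAGTGN and 5 bases that pair with the first 5, with G-T pairs allowed. Each site below is 27 bases long, 5′ to 3′ on the gene's strand, with the loop of 6 bases in capitals. The ferritin pair and SLC40A1 held 1 match each in the 5′ untranslated region, and TFRC held 4 in its 3′ untranslated region.
FTH1, chr11:61967575-61967601, minus strand: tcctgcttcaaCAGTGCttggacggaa
FTL, chr19:48965336-48965362, plus strand: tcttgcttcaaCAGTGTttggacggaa
SLC40A1, chr2:189580662-189580688, minus strand: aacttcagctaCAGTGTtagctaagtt
TFRC, chr3:196050980-196051006, minus strand: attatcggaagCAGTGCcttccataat
TFRC, chr3:196050576-196050602, minus strand: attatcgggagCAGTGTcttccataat
TFRC, chr3:196050511-196050537, minus strand: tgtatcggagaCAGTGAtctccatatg
TFRC, chr3:196050464-196050490, minus strand: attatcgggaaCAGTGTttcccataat
Over all 19641 protein-coding genes searched, 28 (0.143%) had a match in a 5′ and 127 (0.647%) in a 3′ untranslated region. The other 6 members had none under this rule, which says only that this arrangement of letters is not in their annotated transcripts: SLC11A2 is known for an iron-responsive element in the 3′ end of some of its isoforms. The deposited tables hold 1 value per gene, so isoforms with and without an element were not separated, and RNA levels do not measure the translation that the 5′ elements control.

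The label of the knockdown was checked first. In TPM, the deposited unit of transcript abundance scaled for length and library, MEN1 stood at 6.29, 6.44 and 6.88 in the knockdown libraries against 41.2, 39.6 and 37.1 in the controls, 16.6% of the control mean (limma adjusted p 8.54e-06). The tables give no read counts. The most common ratio of deposited coverage to FPKM corresponds to 5.56e+09 to 1.08e+10 aligned bases per library. It was shared by 19.1% to 21.2% of the genes at 1 TPM or more in a library. Of 10 erythroid markers, 7 rose and 0 fell after the knockdown, where 22.1% of all genes tested rose and 31.5% fell. GATA1, KLF1 and EPOR did not pass. The summed level of the 10 was 74332 to 82417 TPM against 43609 to 47384 TPM in the controls. Most of that sum was HBB (mean 50170.5 against 30237.5 TPM) and HBA1 (23556.5 against 12208.2 TPM). The part of this shift in the iron gene results was not tested, and in bulk RNA fewer cells of a type and less RNA per cell cannot be told apart. Lineage markers of other cells were low: 6 of 6 hepatocyte, 4 of 4 lymphoid and 7 of 8 macrophage markers averaged under 1 TPM, and CD163, MARCO, PF4 and PPBP were listed at 0 in every library. The macrophage marker CD68, at 10.4 to 22.8 TPM, rose, and the megakaryocyte marker ITGA2B, at 16.1 to 36.3 TPM, fell. LYZ, a macrophage marker that passed the filter only through the controls, was at 1.27 to 1.67 TPM there and at 0.151 to 0.268 TPM after the knockdown.

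The fit covered the 14294 genes that reached 1 TPM in 3 or more libraries. In it 9 of the 10 iron genes passed an adjusted p of 0.05 (limma on log2(TPM + 1), Benjamini-Hochberg over all genes), where 53.6% of all genes tested did. SLC11A2, NCOA4, IREB2, FTH1 and TFRC rose, 5 of 10, against 22.1% of all genes. SLC40A1, ACO1, TFR2 and FTL fell, 4 of 10, against 31.5% of all genes. STEAP3 did not pass. Only SLC40A1, ACO1 and SLC11A2 changed by at least 2-fold on the fitted scale, 3 of 10, against 11.9% of all genes. The 3 libraries of each group did not overlap in 9 members, where this held for 61.8% of all genes. The median log2 fold change was 0.12 over the members and -0.07 over all genes tested. All 10 members passed the filter on low values, the lowest being ACO1 at 8.34 TPM in MEN1 shRNA replicate 3.

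**Figure D1:**
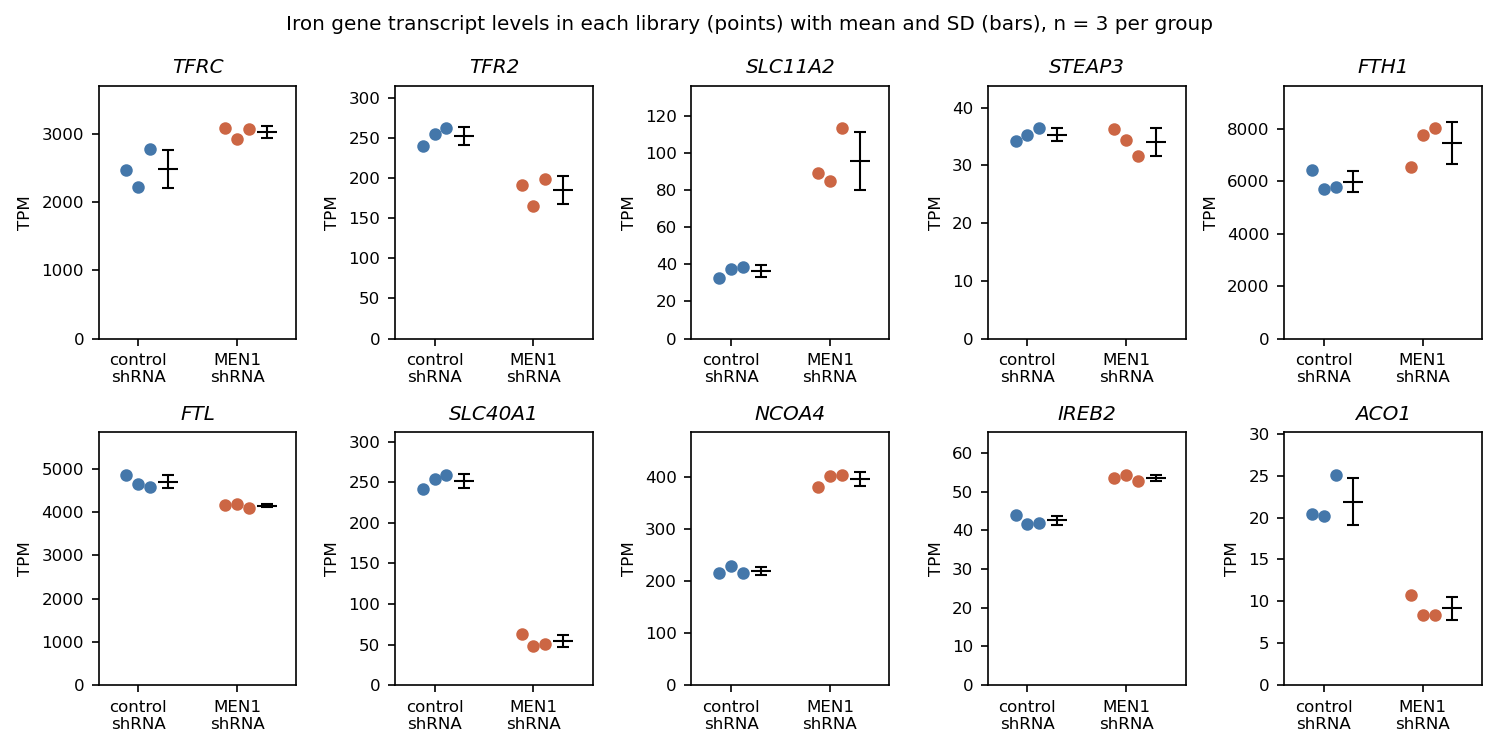
Transcript level in TPM (vertical axes, each from 0) of the 10 iron genes in control shRNA libraries (blue points) and MEN1 shRNA libraries (orange points), in replicate order from left to right, with the mean and SD beside them (n = 3 per group). SLC40A1 lay at 243 to 259.8 TPM in the controls and 48.5 to 62.8 TPM after the knockdown, and STEAP3 was the member whose groups overlapped.

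Uptake by the transferrin cycle came first. TFRC (ENSG00000072274, chromosome 3, 196012511 to 196082153, minus strand), which encodes transferrin receptor 1, stood at 3082, 2927 and 3072 TPM in MEN1 shRNA replicates 1, 2 and 3. The control replicates, in the same order as throughout, stood at 2464, 2221 and 2772 TPM. The lowest MEN1 shRNA library lay above the highest control, but the controls alone ranged over more TPM than separated the groups. The mean rose from 2486 ± 276 to 3027 ± 86.8 TPM (SD, n = 3 each), 1.22 times, with a log2 fold change of 0.29 (95% interval 0.09 to 0.49, limma adjusted p 0.0232). By mean level over the 6 libraries TFRC ranked 35 among all genes tested. The rise did not pass the threshold without MEN1 shRNA replicate 1 (adjusted p 0.0565) or 3 (0.0610) or without control replicate 1 (0.0626) or 2 (0.0703). Under quantile normalization it was 0.52, the highest of the alternatives run.

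TFR2 (ENSG00000106327, chromosome 7, 100620416 to 100642779, minus strand) encodes transferrin receptor 2, a relative of TFRC that also binds the erythropoietin receptor and takes part in iron sensing. It moved the opposite way. Its level was 191, 165 and 199 TPM after the knockdown, against 240.4, 255 and 262 TPM in the controls, so every MEN1 shRNA library lay below every control. The fall was to 73.2% of the control mean (185 ± 17.4 against 253 ± 11.1 TPM, log2 fold change -0.45, 95% interval -0.64 to -0.27, limma adjusted p 0.00210). A ratio of TPM values does not depend on a factor that scales a whole library. Quantile normalization is not such a factor, and the ratios were not run under it. The TFRC to TFR2 ratio was 16.2, 17.7 and 15.5 after the knockdown, against 10.3, 8.70 and 10.6 in the controls. It was 1.67 times higher after the knockdown, and the groups did not overlap (exact permutation p 0.1, 2-sided, the smallest that 3 against 3 libraries allow; 0.133 after adjustment over the 4 ratios tested).

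STEAP3 (ENSG00000115107, chromosome 2, 119223831 to 119265652, plus strand) encodes the main ferrireductase of the erythroid endosome. Its level was 36.4, 34.4 and 31.6 TPM after the knockdown, against 34.2, 35.2 and 36.5 TPM in the controls. The groups overlapped, and the log2 difference of -0.05 had a 95% interval of -0.22 to 0.12 (limma adjusted p 0.602). The sign turned under 3 scalings of the data. The other reductases of the family were close to absent: STEAP1 reached at most 0.716 TPM, and STEAP2 and STEAP4 at most 0.0234 TPM, in any library.

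SLC11A2 (ENSG00000110911, chromosome 12, 50979401 to 51028566, minus strand), the gene of the DMT1 transporter that moves iron out of the endosome, had the largest rise of the 10. It stood at 89.0, 84.6 and 113 TPM after the knockdown against 32.5, 37.7 and 38.5 TPM in the controls. No MEN1 shRNA library came near the controls, although replicate 3 was higher than replicates 1 and 2. The mean rose 2.64-fold, from 36.2 ± 3.29 to 95.6 ± 15.4 TPM (log2 fold change 1.37, 95% interval 1.09 to 1.65, limma adjusted p 9.59e-05). Only 5.42% of all genes tested had a larger absolute log2 fold change. Over all alternatives the log2 fold change lay between 1.24 and 1.45. Within the endosomal route SLC11A2 thus rose while STEAP3, the step before it, did not pass the test. Whether their changes differed was not tested.

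Storage genes were the most abundant members. FTH1 (ENSG00000167996, chromosome 11, 61959718 to 61967634, minus strand), whose product is the heavy subunit that oxidises incoming iron, ranked 8 among all genes tested. Its level was 6565, 7789 and 8035 TPM after the knockdown, against 6452, 5728 and 5798 TPM in the controls. MEN1 shRNA replicate 1 lay close to control replicate 1, and the other MEN1 shRNA libraries were higher. The mean rose from 5993 ± 399 to 7463 ± 788 TPM, 1.25 times (log2 fold change 0.31, 95% interval 0.09 to 0.54, limma adjusted p 0.0259). The rise did not pass without MEN1 shRNA replicate 2 (0.0761) or 3 (0.0766) or without control replicate 2 (0.0866) or 3 (0.0751).

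FTL (ENSG00000087086, chromosome 19, 48965309 to 48966879, plus strand), the light subunit that helps iron to form its mineral core, ranked 15. Its level was 4157, 4174 and 4099.6 TPM after the knockdown, against 4865, 4654 and 4589 TPM in the controls. The MEN1 shRNA libraries lay close together and below all controls. The mean fell to 88.1% of control, from 4703 ± 144 to 4143 ± 38.8 TPM (log2 fold change -0.18, 95% interval -0.31 to -0.05, limma adjusted p 0.0279). This small fall did not pass the test under 13 of the 18 alternatives, among them the removal of MEN1 shRNA replicate 2 (0.0550) or 3 (0.0675) or of control replicate 1 (0.0948) or 2 (0.0691). Under quantile normalization it turned to 0.04.

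In TPM FTH1 rose and FTL fell, but the fall of FTL did not pass under most alternatives and turned to 0.04 under quantile normalization. The ratio of the subunits does not depend on a factor that scales a whole library. The FTH1 to FTL ratio of TPM values was 1.58, 1.87 and 1.96 in the knockdown libraries, against 1.33, 1.23 and 1.26 in the controls. All MEN1 shRNA libraries were higher, by 1.41 times on average (exact permutation p 0.1, the smallest possible; 0.133 adjusted over 4 ratios). The summed ferritin level, at 10721, 11963 and 12135 TPM after the knockdown, against 11316, 10383 and 10387 TPM in the controls, overlapped between the groups. Ferritin genes have many processed pseudogenes that share sequence with them. The 25 rows named FTH1P held 2.62% to 4.11% of the summed FTH1 level, and the 16 rows named FTLP 0.571% to 0.927% of that of FTL. With these rows added, the log2 fold changes were 0.33 and -0.18.

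NCOA4 (ENSG00000266412, chromosome 10, 46005088 to 46030623, minus strand) encodes the receptor that carries ferritin to the lysosome so that its iron can be used. It was at 381, 402 and 404 TPM after the knockdown, against 214, 228 and 215 TPM in the controls. The groups were far apart for their spread. The mean rose 1.80-fold, from 219 ± 7.78 to 396 ± 12.8 TPM (log2 fold change 0.85, 95% interval 0.72 to 0.97, limma adjusted p 3.32e-05). Every alternative kept the rise, at log2 fold changes of 0.83 to 0.94.

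Export showed the largest change of any member. SLC40A1 (ENSG00000138449, chromosome 2, 189560590 to 189583758, minus strand), which encodes ferroportin, the known exporter of cellular iron, stood at 62.8, 48.5 and 50.8 TPM after the knockdown. In the controls it was at 243, 254 and 259.8 TPM. The highest MEN1 shRNA library was well below the lowest control, and replicate 1 was the highest of its group. The mean fell to 21.4% of control, from 252 ± 8.79 to 54.0 ± 7.71 TPM (log2 fold change -2.21, 95% interval -2.44 to -1.98, limma adjusted p 1.59e-05). Only 1.03% of all genes tested had a larger absolute log2 fold change, and over all alternatives the value lay between -2.32 and -2.08. In the controls SLC40A1 was as abundant in TPM as TFR2 and above NCOA4. With the MEN1 shRNA it lay below both, and its range overlapped that of IREB2.

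The iron sensors moved in opposite directions. IREB2 (ENSG00000136381, chromosome 15, 78437431 to 78501453, plus strand), whose protein is destroyed when iron is plentiful, was at 53.6, 54.4 and 52.7 TPM after the knockdown, against 43.98, 41.7 and 42.04 TPM in the controls. Its libraries varied little within a group, and the mean rose 1.26-fold (53.6 ± 0.857 against 42.6 ± 1.22 TPM, log2 fold change 0.33, 95% interval 0.19 to 0.46, limma adjusted p 0.00229). ACO1 (ENSG00000122729, chromosome 9, 32384603 to 32454769, plus strand), whose protein is a cytosolic aconitase when it holds an iron-sulfur cluster and binds RNA when it does not, was at 10.7, 8.41 and 8.34 TPM against 20.4, 20.2 and 25.1 TPM. Every MEN1 shRNA library was below every control. The mean fell to 41.8% of control, from 21.9 ± 2.80 to 9.15 ± 1.34 TPM (log2 fold change -1.18, 95% interval -1.48 to -0.88, limma adjusted p 0.000231).

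The IREB2 to ACO1 ratio of TPM values was 5.01, 6.48 and 6.32 after the knockdown, against 2.15, 2.07 and 1.67 in the controls, 3.02 times higher after the knockdown and without overlap (exact permutation p 0.1; 0.133 adjusted over 4 ratios). In TPM IREB2 was the more abundant RNA of the pair in every library. In deposited coverage per base their control ranges overlapped, at 65.6 to 100.4 for IREB2 and 59.9 to 97.1 for ACO1. Coverage is not scaled for depth, so this overlap does not tell which was higher within a control library. The TFRC to FTH1 ratio, uptake against storage, did not separate the groups. It was 0.469, 0.376 and 0.382 after the knockdown, against 0.382, 0.388 and 0.478 in the controls (exact permutation p 0.6; 0.6 adjusted over 4 ratios).

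**Figure D2:**
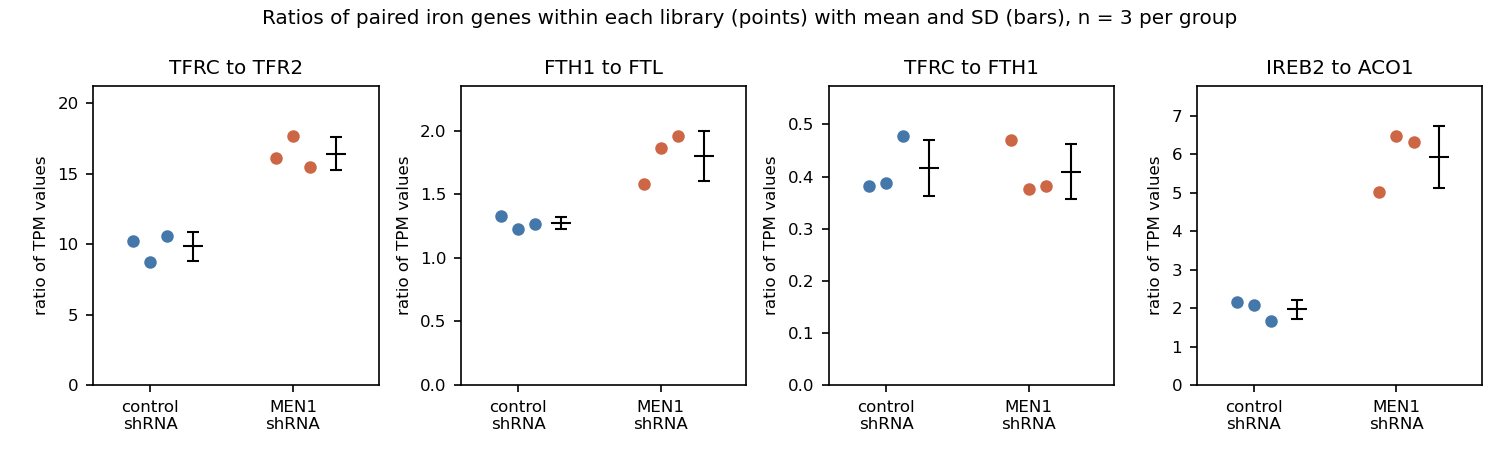
Ratio of the TPM values of paired iron genes within each library (vertical axes, each from 0), with control shRNA in blue, MEN1 shRNA in orange and the mean and SD beside the points (n = 3 per group). The groups are apart for TFRC to TFR2, FTH1 to FTL and IREB2 to ACO1, and overlap for TFRC to FTH1.

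The values of the tested members and listed genes with a matched iron-responsive element, set side by side, were as follows. They are RNA levels and do not bear on translation. TFRC, with its sites in the 3′ region, rose by 0.29 on the log2 scale. CDC14A, a phosphatase gene with a match in its 3′ region and named after its values were seen, rose from 8.01 ± 0.332 to 10.4 ± 1.16 TPM (log2 fold change 0.34, limma adjusted p 0.0278). CDC42BPA, placed with CDC14A in a list of messengers with an iron-responsive element, had no match under this rule. It fell (log2 fold change -0.88, limma adjusted p 7.44e-05). Of the members with a 5′ site, FTH1 rose by 0.31, FTL fell by 0.18 and SLC40A1 fell by 2.21. ALAS2, the first enzyme of erythroid heme synthesis, whose 5′ site is shown for comparison, rose from 383 ± 39.0 to 780.4 ± 25.3 TPM (log2 fold change 1.03, limma adjusted p 6.10e-05).
ALAS2, chrX:55030942-55030968, minus strand: tcgttcgtcctCAGTGCagggcaacag

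**Figure D3:**
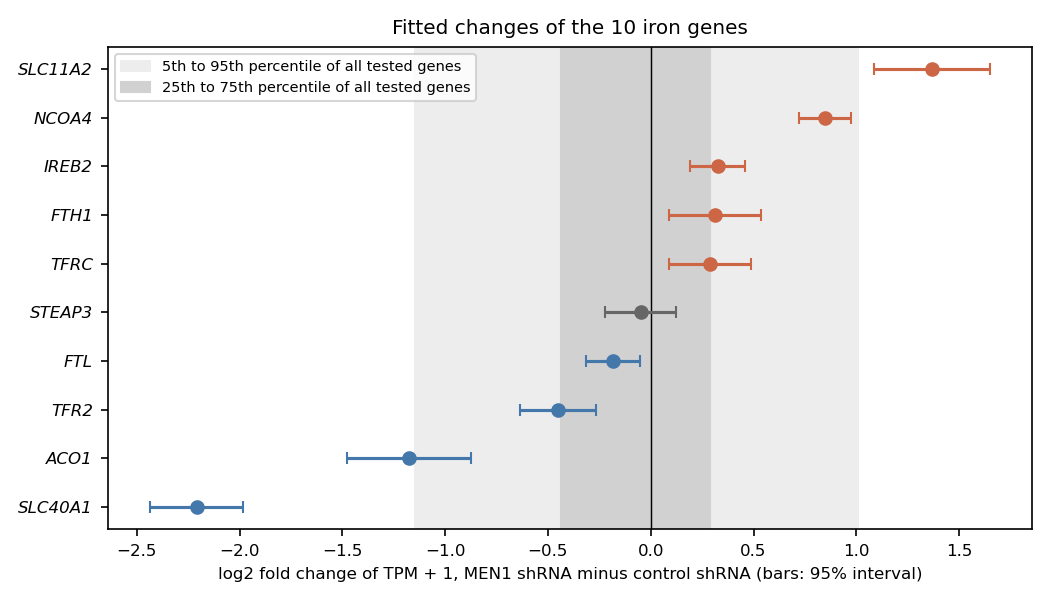
Log2 fold change of TPM + 1 (horizontal axis, MEN1 shRNA minus control shRNA) for each iron gene, with its 95% interval from limma. Orange marks a rise and blue a fall past the threshold, grey the gene that did not pass, and the shaded bands the middle of the distribution over all genes tested, from the 25th to the 75th percentile (-0.44 to 0.29) and from the 5th to the 95th (-1.15 to 1.01). SLC11A2, ACO1 and SLC40A1 lie outside the wider band.

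In the controls the order of levels ran from FTH1 through FTL, TFRC, TFR2, SLC40A1, NCOA4, IREB2, SLC11A2 and STEAP3 to ACO1. TPM is scaled for transcript length, but the deposited coverage per base gave another order. In the controls coverage was 14580 to 22756 for FTL and 4697 to 7127 for FTH1. It was 27.7 to 43.2 for SLC11A2, below ACO1 at 59.9 to 97.1. In TPM the ranges of neighbours overlapped for TFR2 with SLC40A1 and for SLC11A2 with STEAP3, and were separate elsewhere. With the MEN1 shRNA the first 3 and the last 2 places were the same, NCOA4 came next after TFRC, and the only neighbours with overlapping ranges were SLC40A1 and IREB2. Together the 10 genes made up 1.46% to 1.61% of TPM after the knockdown and 1.35% to 1.46% in the controls.

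The wider pathway was described with 6 lists of 51 genes, of which 38 passed the filter and 28 passed the test, 18 higher and 10 lower, where 53.6% of all genes tested passed, 22.1% higher and 31.5% lower. These shares are the background for the counts of each list below, which hold at most 9 tested genes each. The split of all genes into higher and lower was closer to even under some other scalings, as given at the end. Over the 38 genes the median log2 fold change was 0.24, against -0.07 over all genes tested. Among partners of the transferrin cycle and other importers, 5 of 9 genes tested rose and 2 fell (all genes: 22.1% higher, 31.5% lower). ATP6V0A1, a subunit of the proton pump that acidifies endosomes, rose from 33.9 ± 2.54 to 79.0 ± 4.68 TPM (2.34-fold, limma adjusted p 3.51e-05). PICALM, an adaptor for clathrin-mediated uptake that handles the transferrin receptor, rose from 183 ± 12.1 to 297 ± 13.9 TPM (log2 fold change 0.69). SLC39A14 (ZIP14), an importer of iron not bound to transferrin, fell from 21.3 ± 0.665 to 7.57 ± 0.844 TPM (adjusted p 4.27e-05, log2 fold change -1.39, and -0.85 when coverage replaced TPM). HFE, a partner of the transferrin receptors, was at 0.484 to 1.48 TPM and was not tested.

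Of 6 tested genes that deliver iron to ferritin or take part in its turnover, 2 rose and 2 fell, against 22.1% and 31.5% of all genes, so the number that passed was near the background. PCBP1, a chaperone that loads ferritin with iron, rose from 575 ± 3.39 to 678 ± 10.0 TPM (log2 fold change 0.24, limma adjusted p 0.00378, and 0.14 under quantile normalization). TAX1BP1, an autophagy receptor with a part in ferritin turnover, rose from 96.8 ± 3.77 to 139.5 ± 9.76 TPM (log2 fold change 0.52). HERC2, a ubiquitin ligase that degrades the NCOA4 protein when iron is plentiful, fell from 27.9 ± 1.08 to 20.2 ± 0.590 TPM (adjusted p 0.00118, log2 fold change -0.45). NUFIP1, an autophagy receptor for ribosomes, fell from 19.5 ± 1.30 to 9.08 ± 1.99 TPM (log2 fold change -1.04).

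Of the 4 export partners only HEPH passed the filter. HEPH encodes hephaestin, a membrane ferroxidase that works beside ferroportin in the gut. It was at 6.94, 13.2 and 14.2 TPM after the knockdown, against 1.05, 0.636 and 0.714 TPM in the controls. It passed the filter only through the knockdown libraries, where it was high, so it had to differ and its test supports nothing, although it is counted among the 18 genes higher. Its fitted log2 difference was 2.74, and 3.64 with a pseudocount of 0.1 and 1.94 when coverage replaced TPM. Replicate 1 was the lowest of the MEN1 shRNA libraries, as it was the highest for SLC40A1. Over the members that passed, MEN1 shRNA replicates 1, 2 and 3 were closest to the controls for 4, 3 and 2 genes. HAMP, the gene of the ferroportin-degrading hormone hepcidin, reached at most 0.1198 TPM in any library.

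Among genes of iron sensing and regulation 4 of 8 tested rose and 2 fell (all genes: 22.1% higher, 31.5% lower). EPAS1 (HIF-2α), an oxygen-regulated transcription factor, rose from 17.0 ± 1.18 to 52.2 ± 9.16 TPM (log2 fold change 1.55, limma adjusted p 8.52e-05). BACH1, a heme-sensing repressor of ferritin and ferroportin genes, rose from 35.4 ± 1.18 to 55.0 ± 4.41 TPM (adjusted p 0.000399, log2 fold change 0.62), and HIF1A from 47.7 to 59.9 TPM (log2 fold change 0.32). FBXL5, the ligase subunit that degrades IRP2, did not pass (26.8 ± 4.78 against 21.9 ± 2.87 TPM, log2 fold change 0.27, adjusted p 0.160). Without MEN1 shRNA replicate 3, the lowest of its group at 21.3 TPM, it was 0.42 with an adjusted p of 0.0236.

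The list of mitochondrial iron genes and other messengers with an iron-responsive element had 3 genes higher and 3 lower of 7 tested (all genes: 22.1% higher, 31.5% lower). SLC25A37 (mitoferrin-1), which brings iron into the erythroid mitochondrion, was at 1204, 1274 and 1299.9 TPM after the knockdown, against 631, 643 and 298 TPM in the controls (log2 fold change 1.35, limma adjusted p 0.00413). Control replicate 3 was far below the other controls, and without it the log2 fold change was 0.98. CDC42BPA, a kinase, fell from 42.5 ± 2.45 to 22.7 ± 0.795 TPM (log2 fold change -0.88).

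Of 7 tested genes of heme transport and breakdown, 3 rose and 1 fell, and the number that passed was near the 53.6% of all genes. BLVRB, a reductase abundant in red cells, rose from 1016 ± 77.1 to 1654 ± 264 TPM (log2 fold change 0.69, limma adjusted p 0.00213). The heme exporter FLVCR1 rose from 8.07 ± 0.905 to 12.6 ± 1.03 TPM (log2 fold change 0.59). ABCG2, a transporter of porphyrins and drugs, rose from 5.17 ± 0.845 to 8.94 ± 1.41 TPM (0.69, and 0.20 when coverage replaced TPM).

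**Figure D4:**
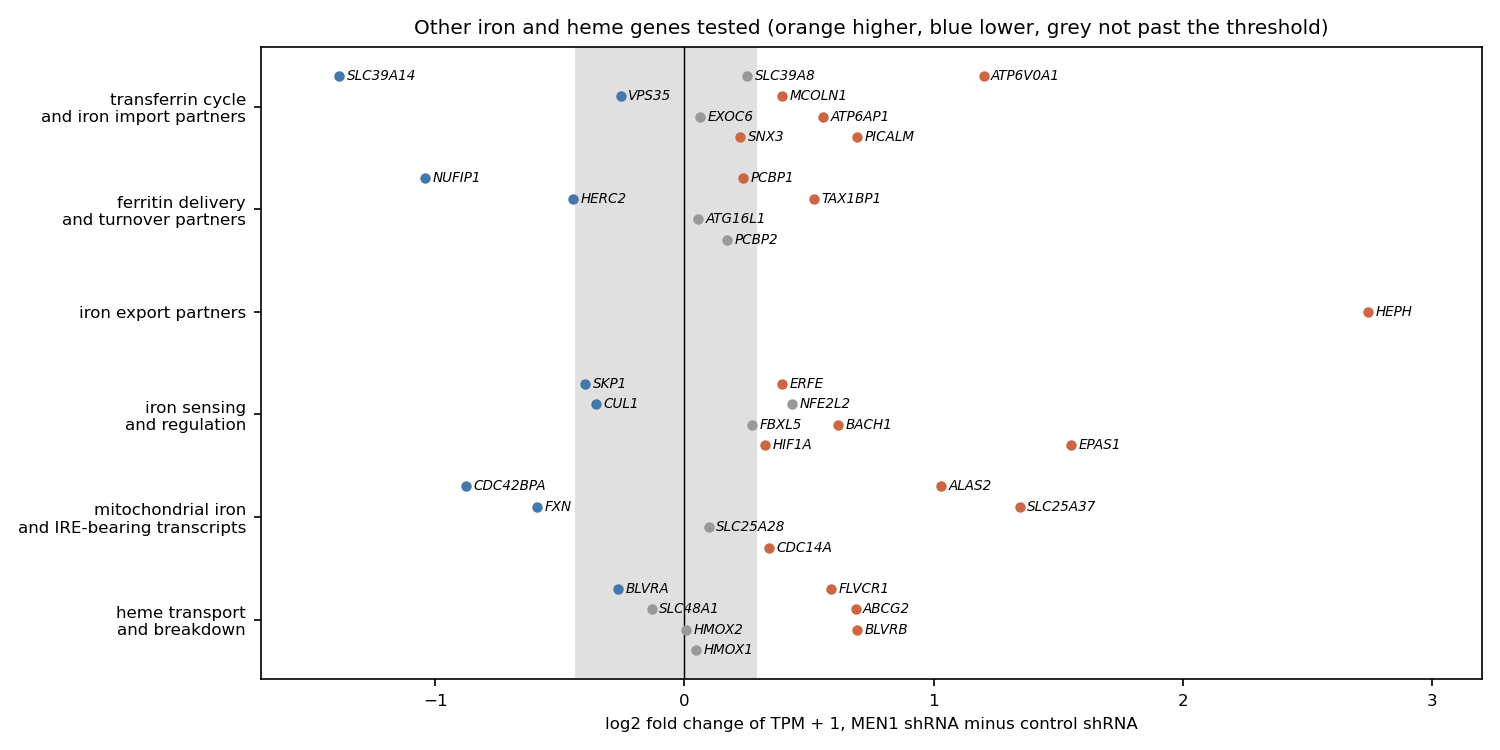
Log2 fold change of TPM + 1 (horizontal axis, MEN1 shRNA minus control shRNA) for genes tested in 6 lists of iron and heme genes (vertical axis, 1 of the 38 tested genes not drawn, points staggered for legibility). Orange marks a rise and blue a fall past the threshold in limma, and the shaded band spans the 25th to 75th percentile of all genes tested (-0.44 to 0.29). The highest value drawn is that of HEPH, at 2.74, and the lowest that of SLC39A14, at -1.39.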

How the data were processed

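Poly(A) RNA from 6 libraries was sequenced. The submitters' processing notes name FastQC, Trimmomatic, STAR 2.7.1a, Picard 2.20.4, StringTie 2.0.4 and hg38, without roles. The annotation is not given in the sources used here. The deposited TPM values are scaled per gene length and sum to 1000000 per library. The deposited FPKM values are per kilobase and library size, and the deposited coverage is the mean signal per base, per the file headers. In 3 cells a negative residue was replaced by 0. Because TPM sums to a constant, higher levels of some genes lower those of others, and overlapping rows may share reads. Rows overlapping a member reached at most 3.72 TPM. Genes with TPM of 1 or more in at least 3 libraries were fitted on log2(TPM + 1) with limma 3.58.1 in R 4.3.3 (trend), 2-sided, threshold 0.05. Fold changes on this scale understate changes of low genes. Ratios were compared by exact permutation. Tables and figures were made with Python 3.11.15. All 10 member identifiers lie at overlapping positions in GENCODE 29 (GRCh38).

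The members and lists were chosen with earlier results of these data known. Named beside the members and MEN1 were up to 3 genes per list with the lowest adjusted p past the threshold, and HFE, PCBP1, FBXL5, HAMP, ALAS2 and SLC25A37; 1 gene that this rule names is not reported here. P-values measure only the spread between these libraries.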

Additional observations from a re-analysis of the deposited data

How the results depend on the processing

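SLC40A1, SLC11A2, NCOA4, ACO1, IREB2 and TFR2 kept direction and call under all 17 alternatives run for each. Of 172 comparisons of a member with an alternative, 142 kept both, 25 lost the call and 5 changed sign, and the cause was not tested. The call was lost without the filter on low genes for TFRC (0.29, adjusted p 0.119), FTH1 (0.31, 0.181) and FTL (-0.18, 0.220), and the same 3 did not reach an adjusted p of 0.01. FTL also lost it with FPKM (-0.15), median-of-ratios scaling (-0.0941), TPM without globin and mitochondrial genes (-0.12), no trend (-0.18) and coverage scaled to TPM (-0.18, an alternative added after the data were seen), and turned to 0.0413 under quantile normalization. STEAP3, never past the threshold, turned to 0.036, 0.0155 and 0.0379 under median-of-ratios scaling, TPM without globin and mitochondrial genes, and quantile normalization.

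Leaving out 1 library at a time gave log2 fold changes of 0.21 to 0.37 for TFRC, 0.26 to 0.40 for FTH1, -0.20 to -0.16 for FTL and -0.10 to 0.0034 for STEAP3, and a log2 TFRC to FTH1 ratio difference of -0.126 to 0.0809. Between 6 and 9 members passed over all settings, and 6 to 8 with a library left out. Over all genes 5527 to 7674 passed.

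Libraries with the same replicate number did not deviate together over all genes (correlations of 0.017, -0.027 and -0.012). MEN1 shRNA replicate 1 was nonetheless closest to the control of its own number, and replicates 2 and 3 were not. Whether same-numbered libraries shared a batch cannot be told from this. With the replicate block 7 members and 7012 genes passed, and FTH1 (0.31, adjusted p 0.0668) and FTL (-0.18, 0.0839) lost the call.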
